A study of Hapsidospora chrysogena with 9 samples.

Results

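The wild type of Hapsidospora chrysogena, a filamentous fungus also called Acremonium chrysogenum, was followed through 3 libraries of mycelium, taken at 48, 72 and 96 h of culture in LPE medium. They are 3 of the 9 RNA-seq libraries of the series and were chosen by their labelled genotype. The other 6 libraries come from strains in which AcmybA was knocked out or overexpressed, 3 each, at the same times and in the same medium. AcmybA is a Myb transcription factor gene, and the study asks about its part in conidiation and cephalosporin production. Each strain and time has 1 library, so a step between times has no replicate check, and no p-value is given for it. Whether a mutant strain is 1 clone is not given in the sources used here.

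As background, H. chrysogena is the producer of cephalosporin C, a beta-lactam antibiotic. Filamentous fungi in culture commonly pass from growth into a later phase in which secondary metabolites and asexual spores, the conidia, are made. Myb proteins bind DNA through helix-turn-helix repeats and act as regulators of transcription. The deposited table lists genes by protein identifier only, with no names, so no role is given to any transcript, and markers of mycelium or conidia could not be looked up. The levels are taken as FPKM, fragments per kilobase of transcript and scaled to library depth, which allows levels of different genes to be set side by side.

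Of 8899 genes in the table, 7547 reached 10 FPKM in at least 1 wild-type library and are described here. The highest value of the gene nearest inside this limit was 10.004 FPKM, and of the gene nearest outside 9.984 FPKM. Among the 1352 genes left out, 268 were listed at 0 at all 3 times. Summed FPKM was 1053504 at 48 h, 1046509 at 72 h and 972960 at 96 h, and median FPKM was 37.0, 38.8 and 38.3. Depth is not stated. From the steps between low values, the depth of the 48 h and 72 h libraries was estimated at 0.930 and 0.949 of that of the 96 h library, so the 3 libraries were of similar depth.

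Most of the change in the wild type lay between 48 and 72 h. Over this step 965 genes were higher and 470 lower past 2-fold, a change of at least 1 in size on the log2(FPKM + 1) scale, which understates changes of low genes. These are 12.8% and 6.23% of the 7547 genes. From 72 to 96 h only 118 genes were higher and 212 lower, 1.56% and 2.81%. From 48 to 96 h, 834 were higher and 577 lower, 11.1% and 7.65%. The median log2 change over all genes was -0.0079 for the first step, -0.014 for the second and -0.0058 from 48 to 96 h. The quartiles were -0.44 and 0.48 in the first step and -0.29 and 0.24 in the second. The standard deviation of the log2 changes across genes was 1.02 over the first step and 0.66 over the second.

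The larger changes of the first step were mostly upward. Past 4-fold, 312 genes were higher and 75 lower, and past 8-fold 118 were higher and 29 lower. From 72 to 96 h, 35 genes were higher and 53 lower past 4-fold, and 27 and 32 past 8-fold. Nearly all of the 27 were genes with a 0 in the wild type or a value shared with another gene. Without such genes, the 2 largest rises of this step were 3.02 and 2.19 on the log2 scale, and only the first is past 8-fold. The 2 largest falls were then -3.18 and -3.07. The excess of lower genes in the second step depends on the scaling. With equal totals per library 164 genes were higher and 166 lower, since the 96 h library has the smallest sum, and the median change moved from -0.014 to 0.090. In the first step higher genes made up 67.2% of those past 2-fold, and 58.7% to 67.8% under the other scalings tried.

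**Figure D1:**
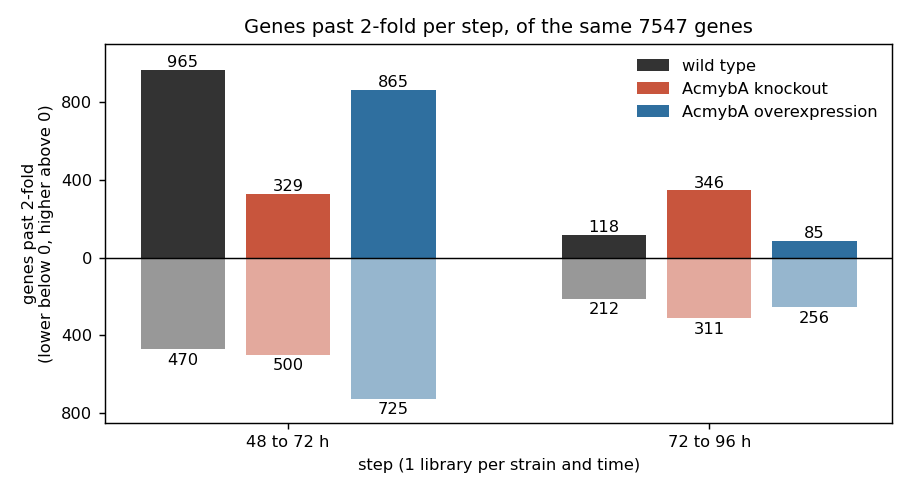
Number of genes past 2-fold over each step, among the genes at 10 FPKM or more in the wild type, with higher genes above the zero line and lower genes below it, for the 3 strains with 1 library per strain and time. The wild type had 965 higher and 470 lower genes in the first step and 118 and 212 in the second. Genes that entered through 1 high wild-type library can raise the wild-type counts.

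The first step also redistributed the transcript pool. At 48 h the most abundant transcript alone took 8.84% of the summed FPKM and the 10 most abundant took 16.4%. At 72 h these shares were 3.85% and 12.4%, and at 96 h 3.18% and 10.3%. The 100 most abundant took 33.5%, 32.2% and 29.8%. Of the 100 most abundant transcripts at 48 h, 63 were still among the 100 most abundant at 72 h and 61 at 96 h. Between 72 and 96 h 86 were shared, and 58 were in the list at all 3 times.

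KFH42067.1 was the most abundant transcript at 48 h, with 93100 FPKM, and then stood at 18436 FPKM at 72 h and 7115 FPKM at 96 h. Its level was lower at each later time, by -2.34 and then by -1.37 on the log2 scale. Knockout levels at the same times were 34236, 14243 and 1212 FPKM, and overexpression levels 516, 157 and 254 FPKM. KFH46859.1 took its place as the most abundant, at 9872, 40273 and 30895 FPKM in the wild type. At 72 h it held 3.85% of the summed FPKM, against 0.937% at 48 h. In the knockout it was also highest at 72 h, at 9862, 19791 and 7479 FPKM, whereas in overexpression it was highest at 48 h, at 21551, 20433 and 13857 FPKM. KFH41657.1, second at 48 h, was at 14611, 9763 and 6823 FPKM, and KFH47707.1, second at 96 h, at 3453, 9052 and 11895 FPKM. The former was lower and the latter higher at each later time, each within 2-fold over the second step.

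Each gene was then placed by both steps, as higher, lower or within 2-fold in each. Both steps were within 2-fold for 5963 genes, 79.0% of the total, which together held 72.0%, 68.5% and 70.9% of the summed FPKM at 48, 72 and 96 h. The next class, with 836 genes, was higher at 72 h and then level. Its share went from 6.28% at 48 h to 22.6% at 72 h and 21.6% at 96 h, and its median FPKM from 18.9 to 67.7 and 57.3. Each class was made from these same values, so the direction of its changes follows from the choice. Only the sizes are a description. The 10 most abundant members of this class took 8.72% of the library at 72 h, so the gain was not carried by KFH46859.1 alone, without which the class held 5.34%, 18.8% and 18.5%. A class of 418 genes was lower at 72 h and then level, with 10.5%, 3.8% and 4.02% of the summed FPKM and medians of 105, 39.0 and 44.0 FPKM.

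The other 6 classes were small. Genes higher over both steps numbered 14 and genes lower over both 15. The latter held 9.24%, 1.92% and 0.805% of the summed FPKM, but without KFH42067.1 their share was 0.407%, 0.155% and 0.0735%. Genes level to 72 h and then higher numbered 67, and those then lower 82. Genes higher at 72 h and then lower numbered 115, and those lower and then higher 37. At 96 h, 78 of the 115 were within 2-fold of their 48 h level, 30 were still past 2-fold above it and 7 past 2-fold below. Of the 37, 25 were within 2-fold of it, 4 above and 8 below. The last 2 classes rest on the single 72 h library, which both steps share.

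**Figure D2:**
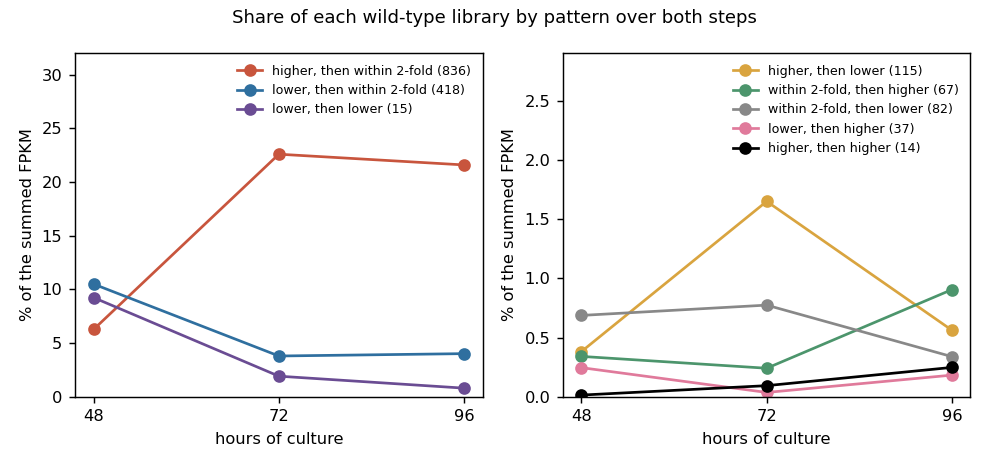
Share of the summed FPKM (%) held by each class of genes in the wild-type libraries at 48, 72 and 96 h, with the number of genes in brackets; each point is 1 library, and the class within 2-fold in both steps is not drawn. The 836 genes that were higher and then level went from 6.28% to 22.6% and 21.6%. The classes were made from these same values, so the direction of each line follows from the choice.

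Genes that were higher at 72 h mostly stayed so. Of the 965 genes, 660 (68.4%) were still past 2-fold above their 48 h level at 96 h, and 914 were above it by any amount. Their median log2 change from 48 h was 1.57 at 72 h and 1.33 at 96 h. Of the 470 lower genes, 320 (68.1%) were still past 2-fold below at 96 h and 458 below by any amount, with a median size of 1.29 at both times. Only 7 and 4 genes of these groups were past 2-fold on the other side at 96 h. Read from the end point, the 834 genes higher from 48 to 96 h had covered a median of 98.5% of that log2 change by 72 h (quartiles 77.5% and 118%), and 397 of them lay above their 96 h level at 72 h. The 577 lower genes had covered a median of 75% by 72 h (quartiles 54.0% and 95.5%), and 116 of them lay below their 96 h level at 72 h. Both comparisons share the 48 h library, so a value there that is off by chance would enter both.

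The largest rises of the first step were those of KFH40935.1 and KFH41531.1, among genes above 0 at all 3 times with no value shared with another gene. KFH40935.1 was at 0.292 FPKM at 48 h, 104 at 72 h and 86.0 at 96 h, a log2 change of 6.35. Resting on a low 48 h value, this change was 8.06 with a pseudocount of 0.1 and 3.47 with one of 10. In the mutants it was low in all 6 libraries, at 0.453, 0 and 0.911 FPKM in the knockout and 0.613, 0.453 and 2.29 FPKM in overexpression. KFH41531.1 was at 4.90, 414 and 362 FPKM, a log2 change of 6.13 over the first step. With a pseudocount of 10 it was 4.83, above that of KFH40935.1, so their order depends on the pseudocount. It was higher at 72 h than at 48 h in both mutants too, at 751, 2504 and 4183 FPKM in the knockout and 1.44, 130 and 54.7 FPKM in overexpression. On the log2(FPKM + 1) scale the largest rise from 48 to 96 h was that of KFH41656.1, at 2.55, 152 and 253 FPKM, a log2 change of 6.16, with KFH40935.1 next at 6.07. With a pseudocount of 0.1 the order turned, at 6.58 and 7.78. In the knockout KFH41656.1 reached 90.6, 599 and 1405 FPKM, and in overexpression 2.34, 47.8 and 45.1 FPKM.

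The largest falls of the first step were those of KFH42616.1 and KFH46115.1. KFH42616.1 was at 5511 FPKM at 48 h, 334 at 72 h and 459 at 96 h, a log2 change of -4.04 and then 0.46. It was lower at each later time in the mutants, at 5687, 509 and 49.2 FPKM in the knockout and 2714, 592 and 267 FPKM in overexpression. KFH46115.1 was at 63.2, 3.8 and 6.45 FPKM, a log2 change of -3.74, and it too was lower at each later time in both mutants. The largest falls from 48 to 96 h were those of KFH41967.1, at 240, 41.3 and 17.2 FPKM, and of the most abundant 48 h transcript KFH42067.1, with log2 changes of -3.73 and -3.71. KFH41967.1 was also lower at 72 h than at 48 h in the knockout, at 91.9, 10.9 and 45.5 FPKM. It was at 26.2, 31.6 and 53.3 FPKM in overexpression, where it was higher at each later time.

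From 72 to 96 h the largest falls belonged to genes that had been higher at 72 h than at 48 h. KFH45536.1 was at 5.81, 320 and 34.3 FPKM, a log2 change of 5.56 followed by -3.18. In the 6 mutant libraries it ranged from 0.132 to 1.42 FPKM. KFH46527.1 was at 59.7, 1941 and 230 FPKM, a log2 change of 5.0 followed by -3.07. It was at 16.9, 12.2 and 7.26 FPKM in the knockout and 35.4, 24.7 and 7.28 FPKM in overexpression, lower at each later time in both. The largest rises of this step were in low genes. KFH45993.1 was at 6.33, 2.08 and 24 FPKM, a log2 change of 3.02, and KFH47239.1 at 3.37, 1.66 and 11.1 FPKM, a log2 change of 2.19. With a pseudocount of 10 the change of KFH47239.1 was 0.86, under 2-fold.

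**Figure D3:**
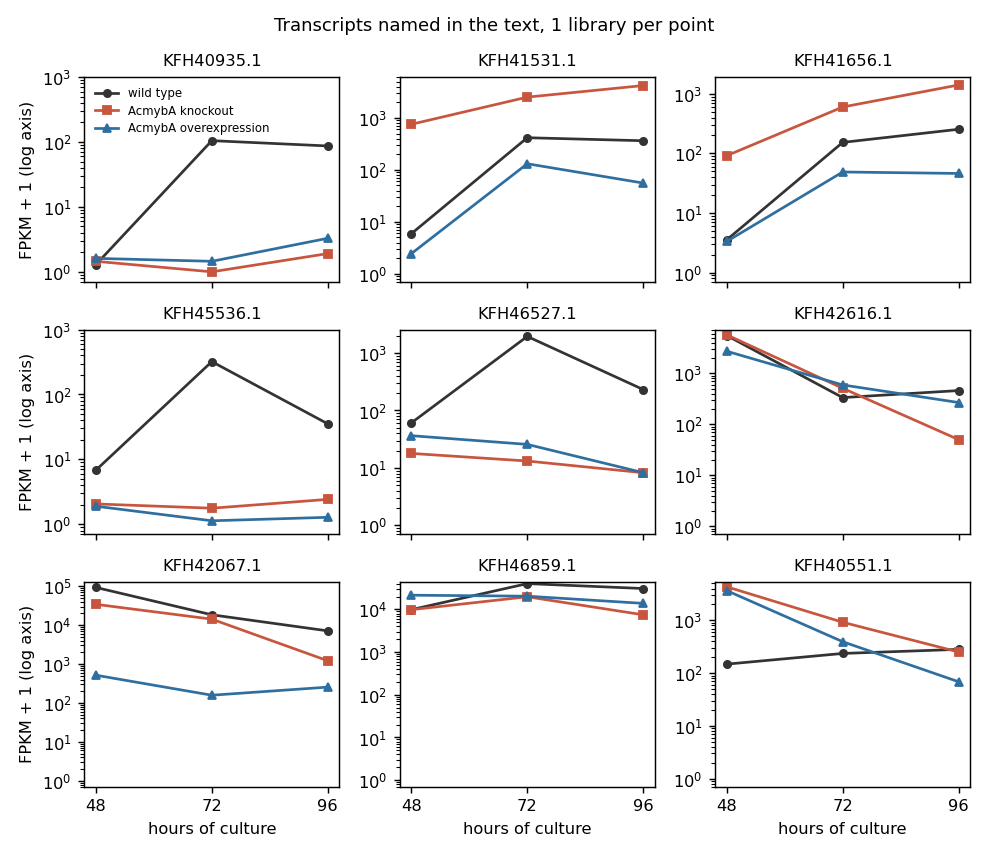
FPKM + 1 on a log axis at 48, 72 and 96 h for 9 of the transcripts named in the text, with 1 library per point and 1 line per strain. KFH40935.1, KFH45536.1 and KFH46527.1 were above both mutants at 72 h in the wild type, while KFH42616.1 was lower at 72 h than at 48 h in all 3 strains.

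How often a gene moved differed between groups of mean level. By mean FPKM over the 3 wild-type libraries, 18.5% of 2035 genes between 10 and 30 FPKM were past 2-fold in the first step, 15.1% of 3224 between 30 and 100, and 18.8% of 1410 between 100 and 300. The share was 29.0% of 441 genes between 300 and 1000 FPKM and 29.3% of 123 genes at 1000 or more, so change between 48 and 72 h was frequent among abundant transcripts. In the second step the same 5 groups had 5.75%, 2.85%, 2.06%, 3.85% and 2.44% past 2-fold. Of the 314 genes with a mean under 10 FPKM, 45.2% and 22.9% were past 2-fold in the 2 steps, but these entered only through a library in which they were high. Among the 123 most abundant genes 27 were higher and 9 lower in the first step, and 0 higher and 3 lower in the second.

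**Figure D4:**
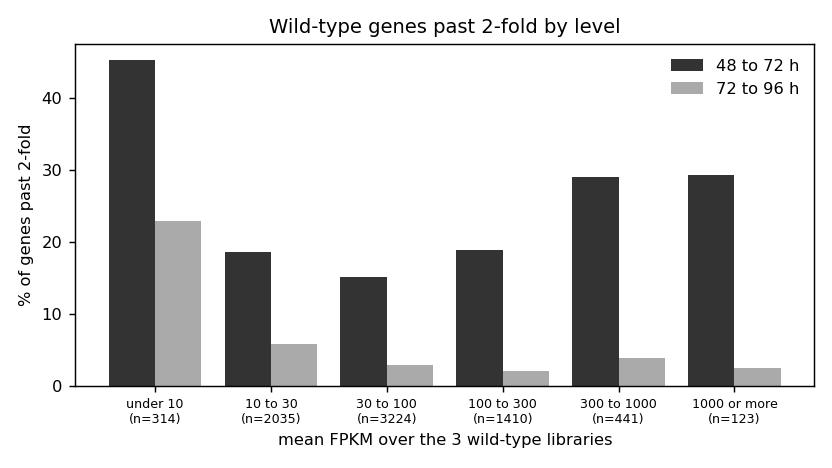
Percentage of wild-type genes past 2-fold over each step, by mean FPKM over the 3 wild-type libraries, with the number of genes under each group. In the first step the share was 15.1% between 30 and 100 FPKM and 29.3% at 1000 FPKM or more, while in the second it was below 6% in all groups but the lowest.

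Some changes involve genes listed at 0. Of the 7547 genes, 98 were at 0 in at least 1 wild-type library, 65 of them at 48 h, 39 at 72 h and 38 at 96 h. In 37 of the 98 a value equals, to every digit, that of another gene in the same wild-type library, which can happen when few reads fall on transcripts of the same length. Over all 7547 genes, 388 had such a shared value, 234 of them in the class level in both steps. Values of 0 may also be failed estimates, so no fold is given. KFH48174.1 was listed at 0 at 48 h and at 1658 and 478 FPKM at 72 and 96 h, and lay between 764 and 1807 FPKM in the 6 mutant libraries. KFH40412.1 was at 0, 0 and 1120 FPKM, and was also at 0 in 4 of the 6 mutant libraries. In the other direction, KFH43695.1 was at 169, 0 and 0 FPKM and KFH43013.1 at 84.3, 0 and 0 FPKM. The 48 h value of KFH43013.1 equals that of another gene to every digit.

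These gaps were frequent among genes whose 2 steps went opposite ways, but not only there. A 0 occurred in 30 of the 115 genes higher and then lower and in 13 of the 37 lower and then higher, against 19 of the 836 that were higher and then level. It also occurred in 16 of the 67 genes level and then higher and in 7 of the 82 level and then lower. Over all 7547 genes there were 98. A gene at 0 in 1 library and at 10 FPKM or more in another must pass 2-fold in a step, so the class level in both steps holds none. The first 2 genes of the class higher and then lower, KFH42397.1 and KFH46389.1, were each at 0, 151 and 0 FPKM, with the same value in every digit at 72 h. The first 2 of the class lower and then higher, KFH43880.1 and KFH46416.1, were at 117, 0 and 337 FPKM and at 62.4, 0 and 60.4 FPKM. After genes at 0 and genes with a shared value were set aside, 69 and 19 genes were left in these 2 classes, KFH45536.1 and KFH46527.1 among the 69.

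At the other end, 304 genes, 4.03% of the total, lay within 1.1-fold over all 3 wild-type libraries. Their mean levels had a median of 55.6 FPKM and they held 2.76% of the summed FPKM. KFH43476.1 was the most abundant of them, at 3879, 3984 and 3810 FPKM. It was at 1105, 1019 and 2107 FPKM in the knockout and 1921, 1550 and 998 FPKM in overexpression, below the wild type in all 6 libraries. KFH42586.1 was next, at 533, 522 and 517 FPKM, against 321, 472 and 284 FPKM in the knockout and 899, 377 and 376 FPKM in overexpression.

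The time courses of the mutants share no library with that of the wild type. Among the same 7547 genes, the knockout had 329 higher and 500 lower genes past 2-fold in the first step, 4.36% and 6.63%, and 346 and 311 in the second, 4.58% and 4.12%. Overexpression had 865 higher and 725 lower in the first step, 11.5% and 9.61%, and 85 and 256 in the second, 1.13% and 3.39%. Its summed FPKM was 1124539, 919523 and 852915 at 48, 72 and 96 h, and the mutant counts were not repeated under other scalings. From 48 to 96 h 7.05% were higher and 9.95% lower in the knockout, with 13.8% higher and 16.8% lower in overexpression. These genes were chosen for their level in the wild type, which does not favour a direction there but may leave out genes that were high in a mutant alone. The choice also lets in genes high in only 1 wild-type library, which can raise the wild-type counts beside those of the mutants. In the wild type, the 314 genes with a mean under 10 FPKM gave 142 of 1435 first-step calls and 72 of 330 second-step calls.

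Genes that moved in the first step in the wild type often moved the same way in the mutants. Of the 965 higher genes, 233 (24.1%) were also past 2-fold higher in the knockout and 444 (46.0%) in overexpression, where all tested genes gave 4.36% and 11.5%. Both mutants showed it for 150 genes (15.5%, against 2.33% of all tested). Their median log2 change was 1.57 in the wild type, and in the mutants 0.43 without AcmybA and 0.89 with it overexpressed. Of the 470 lower genes, 175 (37.2%) were past 2-fold lower in the knockout and 133 (28.3%) in overexpression, against 6.63% and 9.61% of all tested. Median log2 changes were -1.29, -0.73 and -0.68 in the same order of strains. With equal totals per library, the shares in overexpression were 56.1% of wild-type higher genes and 19.0% of lower genes. In the knockout they were 23.5% and 38.3%. The shares over all tested genes were not computed under this scaling. In neither mutant did 438 of the 965 (45.4%) and 214 of the 470 genes (45.5%) pass 2-fold the same way, against 86.5% and 85.5% of all tested.

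For the second step, genes that moved in the wild type were past 2-fold in either direction in the mutants. Of the 118 genes higher from 72 to 96 h in the wild type, 23 (19.5%) were past 2-fold higher in the knockout, but 20 (16.9%) were past 2-fold lower, against 4.58% and 4.12% of all tested. In overexpression 13 (11%) were higher and 15 (12.7%) lower, against 1.13% and 3.39%. Of the 212 lower genes, 33 (15.6%) were lower and 45 (21.2%) higher in the knockout, and 38 (17.9%) lower and 18 (8.49%) higher in overexpression. Genes called in the second step were thus more often past 2-fold than all tested genes, in both directions. Their level differs from that of all tested genes, with 72 of the 330 having a mean under 10 FPKM in the wild type, and the part of level in this was not tested.

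Across the 7547 genes, the log2 change of the first step in the wild type correlated with that in the knockout at r = 0.356 and with that in overexpression at r = 0.481. For the second step the values were 0.0024 and 0.083. The change from 48 to 72 h in the wild type correlated with that from 72 to 96 h at r = 0.091 in the knockout and 0.169 in overexpression. These values describe the libraries across genes, which are not independent replicates, and no point shares a library between strains. The first-step value for the knockout was 0.465 without genes at 0 in the wild type and 0.246 with a pseudocount of 0.1.

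**Figure D5:**
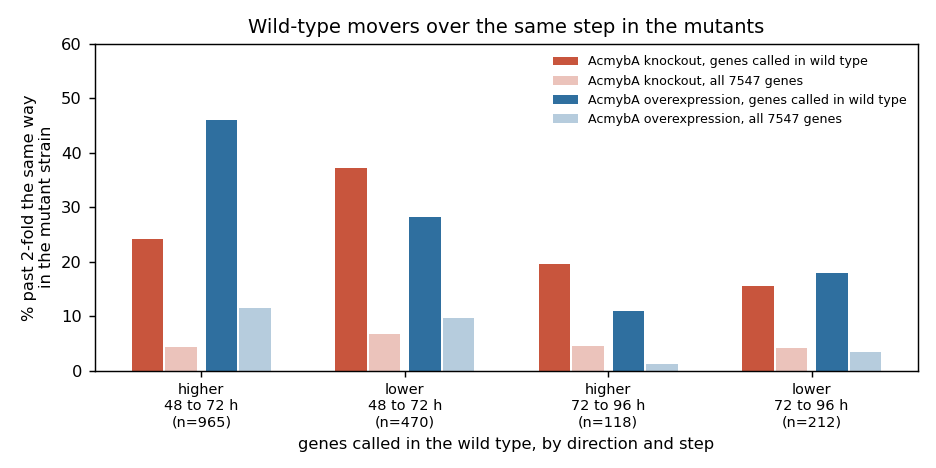
Percentage of genes past 2-fold the same way in each mutant strain over the same step, for genes called in the wild type (dark bars) and for all tested genes (pale bars), by wild-type direction and step. Of genes higher in the wild type from 48 to 72 h, 24.1% were also past 2-fold in the knockout and 46.0% in overexpression, against 4.36% and 11.5% of all genes.

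Most genes higher and then lower in the wild type did not have this course in the mutants. The same course was seen for 5 of the 115 in the knockout (4.35%, against 0.795% of all tested) and for 10 in overexpression (8.70%, against 0.848%). Their median FPKM was 6.80, 40.3 and 10.6 in the wild type, 14.3, 11.6 and 16.3 in the knockout libraries, and 9.47, 16.8 and 15 in those of overexpression. Of the 14 genes higher over both steps, 6 were so in overexpression (42.9%, against 0.477% of all tested) and 2 in the knockout (14.3%, against 0.53%). Their medians were 1.66, 27.1 and 71.6 FPKM in the wild type, 2.46, 39.6 and 102 FPKM in overexpression and 15.4, 49.6 and 126 FPKM in the knockout. Of the 37 genes lower and then higher, 7 were so in the knockout (18.9%, against 1.5% of all tested). In overexpression 1 was (2.7%, against 0.133%). Of the 15 genes lower over both steps, 2 were so in the knockout (13.3%, against 0.61%) and 1 in overexpression (6.67%, against 1.09%).

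Whether the wild-type time course differed from those of the mutants was tested in limma over all 9 libraries. The fit gives every strain its own straight line over time, with slopes per 24 h, and leaves 3 residual degrees of freedom. The test compares the wild-type slope with the mean of both mutant slopes and treats departures from straight lines as error, so a course that goes up and down again counts as noise. It called 0 of 7547 genes (0% in each direction) at a Benjamini-Hochberg adjusted p under 0.05. Before adjustment, 548 of the 7547 genes had a p under 0.05, 384 with a higher and 164 with a lower slope in the wild type. With no difference in any gene, a share of about 0.05 would be expected under this limit. When 1 library was left out, the number of genes under it ranged from 240 without overexpression at 48 h to 704 without the wild type at 96 h. It was 347 without the knockout at 96 h and 647 without the wild type at 72 h. With time added as a block shared by the strains, an alternative chosen after seeing the data that leaves fewer degrees of freedom, 3 genes were called, KFH40412.1, KFH40551.1 and KFH44715.1. For 3 genes low in the mutants at 72 h the slope difference did not pass: the limma adjusted p was 0.699 for KFH40935.1, 0.915 for KFH45536.1 and 0.819 for KFH46527.1. None of the 3 followed a straight line in the wild type, so this test cannot decide whether their courses differ between strains. Differences in level between strains, as described above for other genes, were not tested.

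The gene nearest to the threshold was KFH40551.1, at 147, 235 and 281 FPKM in the wild type. It was at 4329, 920 and 250 FPKM in the knockout and 3667, 393 and 67.5 FPKM in overexpression. The wild type was higher at each later time and both mutants were lower. Its slope in the wild type was 2.93 log2 units per 24 h above the mean of the mutants (SE 0.22, limma adjusted p = 0.0596), and it passed with equal totals (0.0369), after quantile normalisation (0.0333) and with time as a block (0.0377). Without 1 library its limma adjusted p ranged from 0.0852 to 0.691, highest without overexpression at 48 h, and without a filter on low values it was 0.35. KFH46519.1 had the next smallest p in this direction, at 149, 302 and 364 FPKM in the wild type against 273, 162 and 133 FPKM in the knockout and 358, 169 and 93.9 FPKM in overexpression (difference 1.38, SE 0.21, limma adjusted p = 0.553). In the other direction, KFH42884.1 was at 28.0, 9.03 and 5.22 FPKM in the wild type and at 6.08, 547 and 6421 FPKM in the knockout, with 0.845, 1.55 and 1.80 FPKM in overexpression (difference -3.72, SE 0.45, limma adjusted p = 0.451). KFH47418.1 was at 167, 122 and 89.0 FPKM in the wild type and was higher at each later time in both mutants, with 270 FPKM in the knockout and 207 FPKM in overexpression at 96 h (difference -0.92, SE 0.19, limma adjusted p = 0.553).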

How the data were processed

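Libraries were made from polyadenylated RNA of frozen mycelium by Illumina protocols, per the labels' protocols. Tools named by the submitters' processing notes are CASAVA, with no version, and HISAT2 2.0.5. How reads were counted, and on which build and annotation, is not given in the sources used here. A table deposited by the authors holds 1 value per gene and library, treated as FPKM from the deposited values themselves: they are not whole numbers and their sums differ between libraries. All 9 columns matched a library by title.

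Changes were taken on log2(FPKM + 1) for genes reaching 10 FPKM in any wild-type library. With 1 library per time, steps were described by size, past 2-fold. Strain differences in slope were tested with limma 3.58.1 in R 4.3.3, with an intensity trend; the test and the depth estimate were tried on simulated data. No label says that libraries of a strain come from separate cultures, so p-values measure only the spread around straight lines in these libraries. Relative depth was estimated from whole-read ratios of values under 2 FPKM, with 85.6% to 86.6% of values within 0.02 log2 of such a ratio; it gives no read number.

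For each comparison, at most 2 genes per direction with the largest change, highest level or smallest p are named, since no file pairs identifiers with names; for steps these are genes above 0 in all 3 wild-type libraries with no shared value. Gene lists by name were planned and matched 0 genes. The members and lists were chosen with earlier results of these data known. Alternatives were other pseudocounts, filters and scalings, and, for the slope test, leaving out each library.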

Additional observations from a re-analysis of the deposited data

How the results depend on the processing

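With 1 library per time, no wild-type library can be left out of a step. No paired analysis was possible because each strain and time has 1 library, so no replicate numbers pair; the strains share only their times. Counts of genes past 2-fold moved by over 1.5 times mainly where the filter changed the number of genes. At 50 FPKM or more, higher and lower genes were 561 and 331 for 48 to 72 h, 49 and 94 for 72 to 96 h, and 502 and 414 for 48 to 96 h. The classes then held 8 genes higher in both steps, 503 higher then level, 50 higher then lower, 30 level then higher, 3408 level in both steps, 35 level then lower, 11 lower then higher and 9 lower in both steps. With a filter at 1 FPKM, and with no filter, 190 genes were higher from 72 to 96 h, 119 were level then higher and 133 level then lower. A pseudocount of 10 gave 643 higher and 301 lower genes for 48 to 72 h and 63 and 99 for 72 to 96 h, with 6 higher in both steps, 57 higher then lower, 39 level then lower, 11 lower then higher and 3 lower in both steps. Without genes at 0, 24 genes were lower then higher. Equal totals gave 102 genes level then higher and 9 lower in both steps. Leaving out genes with a shared value, an alternative chosen after seeing the data, moved no count by over 1.5 times. Higher genes outnumbered lower genes in the first step in all 10 alternatives. The slope test called 1 gene with a higher wild-type slope with equal totals and 1 after quantile normalisation, KFH40551.1 in both. With time as a block, chosen after seeing the data, it called 3 higher and 0 lower genes, with a 0 in most libraries of KFH40412.1. Leaving out 1 library gave 0 to 1 higher and 0 lower genes; the 1 was KFH48174.1, without wild type at 72 h or at 96 h, with the 0 at 48 h still in the fit. The alternative planned for a table of counts was not run, since the values are FPKM. Depth limits the low genes, where 1 read weighs most.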

Other observations

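Genes with consecutive identifier numbers were compared as a property that no choice above used; whether consecutive numbers are neighbours in the genome was not checked. Of 810 genes higher from 48 to 72 h whose next number was also tested, 130 (16.0%) were followed by another higher gene, against 12.8% of all 6430 consecutive pairs. For lower genes this was 32 of 413 (7.75%, against 6.14%). The longest run of higher genes held 5 numbers, and 5 runs held 4 or more; 1 run of lower genes held 4. From 72 to 96 h, 1 of 106 higher genes (0.943%, against 1.49%) and 8 of 180 lower genes (4.44%, against 2.74%) were followed by one of the same direction. From 48 to 96 h the shares were 13.0% against 11.1% for higher and 11.4% against 7.65% for lower genes. In percentage points the share furthest from its background was that of lower genes from 48 to 96 h, at 11.4% against 7.65%. None of these shares was tested, and all are given as a description.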
